A study of Microtus ochrogaster with 40 samples.

Results

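Spiny nuclei with many transcripts of the immediate early genes Fos, Egr1, Arc, Npas4 and Junb were examined in single-nucleus RNA sequencing libraries of the prairie vole (Microtus ochrogaster) nucleus accumbens. The members were chosen by their own UMI counts, in every library alike. A nucleus was used if it held at least 500 UMIs (unique molecular identifiers, each marking 1 captured RNA molecule) with at most 5% of them from 13 mitochondrial genes. It was counted as spiny if it held at least 1 UMI of the dopamine or adenosine receptor genes DRD1A, DRD2 or Adora2a and none of Slc17a7, a glutamate transporter gene of cortical excitatory neurons. A spiny nucleus was called IEG-high if the 5 immediate early genes together gave at least 4 UMIs and at least 2 of them were detected. This rule found 6790 IEG-high nuclei among 70597 spiny nuclei (9.62%) and 185995 nuclei in all. The comparison nuclei, called IEG-zero, were the 39582 spiny nuclei (56.1%) with no UMI of any of the 5 genes. The other 24225 (34.3%) held few UMIs, or UMIs of 1 gene alone, and belonged to neither set.

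Each of the 40 libraries came from punches of 1 animal. Pairing had lasted 16 days, and the partner was either of the opposite sex, called a mate, or of the same sex, called a peer. The 4 groups held 11 females paired with a mate, 8 females with a peer, 11 males with a mate and 10 males with a peer, and are named female mate, female peer and so on. The labels give sex, pairing type and tissue for each animal and mention no genetic change, drug or other treatment, and no stimulus before tissue collection is named in them. They do not say which animals lived together, so partners may be among the 40 and would not be independent of each other.

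Spiny projection neurons are the inhibitory output cells of the nucleus accumbens, and most express either the D1 dopamine receptor with the peptides dynorphin and substance P, or the D2 and adenosine A2a receptors with enkephalin. Immediate early genes are transcribed within minutes of strong synaptic input, when calcium, cAMP and ERK signalling act on transcription factors that are already present, and their products then switch on slower genes for synaptic and secreted proteins. Nuclear RNA reports recent transcription, so their transcripts are widely read as a mark of neurons that were active shortly before the tissue was taken.

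The members carried the markers of spiny neurons. At least 3 UMIs of 11 spiny marker genes, among them Ppp1r1b, Bcl11b and Pde10a, were present in 99.5% of IEG-high and 93.7% of IEG-zero nuclei, with medians of 30 and 20 such UMIs per nucleus; of all 185995 nuclei, 61.5% passed this count. A stricter definition, with at most 1 UMI of other cell types' markers besides, was met by 53.2% of IEG-high and 59.4% of IEG-zero nuclei. The median depth was 2457.5 UMIs in IEG-high and 1875 UMIs in IEG-zero nuclei. A barcode scored as a doublet, by its likeness to simulated sums of pairs of barcodes, made up 8.70% of IEG-high and 3.98% of IEG-zero nuclei. Among members, 22.5% had a barcode sequence that also occurred in another library, against 22.3% of all nuclei, and 64 members (0.943%) had one that was a member there too. Members per library ranged from 31 in male mate 2, the shallowest library with a median of 631 UMIs per spiny nucleus, to 498 in female mate 3, with a median of 135.5.

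Because the 5 genes chose the members, their levels are given as a description. Arc, a cytoskeletal protein of active synapses, was found in 89.1% of IEG-high nuclei and gave 37.2% of the UMIs of the 5 genes. Egr1, a zinc finger transcription factor, was found in 86.6% and gave 26.7%. Npas4, a transcription factor that is switched on mainly by calcium entry in neurons, was found in 75.5% and gave 25.7%. The AP-1 transcription factors Fos and Junb were less frequent, at 37.2% and 27.0% of members and 6.94% and 3.36% of the UMIs. Egr1 and Arc occurred together in 76.8% of members, and Arc and Npas4 in 66.4%. Exactly 2 of the 5 genes were detected in 1827 members, 3 in 2647, 4 in 1756 and all 5 in 560. The median member held 7 UMIs of the 5 genes and the highest 89. At the edge of the rule, 1258 members held exactly 4 UMIs, while 2626 spiny nuclei just outside held exactly 3 and 271 held 4 or more UMIs of a single gene.

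To ask what else differed in these nuclei, each member was matched to up to 3 IEG-zero nuclei of the same animal and receptor class with nearly the same number of UMIs, and UMIs were summed per animal and state. A match was found for 6409 members, set against 17014 IEG-zero nuclei, in all 40 animals; the other 381 members had none. The summed counts ranged from 22842 to 1026411 UMIs per animal for IEG-high and from 67791 to 2513868 for IEG-zero nuclei. Levels are given as CPM, the usual scaling of counts to the library's total, per animal. Differences are log2 fold changes from edgeR's quasi-likelihood test with the animal as a block, and a gene was called at a Benjamini-Hochberg adjusted p under 0.05 over all 8607 genes tested, which left out the 9 genes the rule uses. Of those 8607 genes, 41.9% were called: 1777 (20.6%) rose in IEG-high nuclei and 1832 (21.3%) fell, with a median log2 fold change of -0.01 over all genes tested. Without scaling factors for composition the calls split into 1171 higher and 3067 lower, and DESeq2 called 40.6% of the same genes (17% higher, 23.6% lower). With the stricter definition of spiny nuclei (at least 3 spiny marker UMIs and at most 1 UMI of other cell types' markers), 31% of 6334 genes were called (15.4% higher, 15.6% lower).

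Immediate early transcription factors outside the rule rose together. Of 26 listed, 13 had enough counts for the test, of which 12 rose and 1 fell. Their median log2 fold change was 2.96, against -0.01 over all genes. Of all genes tested, 20.6% rose and 21.3% fell. Genes such as Egr2 and Fosb, with very few UMIs in IEG-zero nuclei, passed the filter on low counts through the IEG-high sums, so a rise was favoured by the filter and the count and median describe the tested genes only. The 10 that could be tested under the stricter definition all rose there, where 15.4% of all genes tested rose and 15.6% fell. Fosb, a partner of Jun proteins in AP-1, lay between 25.3 and 509 CPM in IEG-high nuclei (median 137) and between 0 and 14.8 CPM in IEG-zero nuclei (median 3.76). The ranges over animals did not overlap, and Fosb rose by 5.48 on the log2 scale (SE 0.08; adjusted p = 1.92e-82, edgeR). Egr2, of the same family as Egr1, had a median of 62.3 CPM (24.7 to 169) against 1.47 CPM (0 to 9.18), a log2 fold change of 5.10 (SE 0.12). No animal's IEG-zero value reached any animal's IEG-high value.

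The orphan nuclear receptors Nr4a1 and Nr4a3 rose as well. Nr4a1 lay between 162 and 740 CPM in IEG-high nuclei (median 392) and between 4.96 and 37.5 CPM in IEG-zero nuclei (median 16.1), a rise of 4.75 on the log2 scale (SE 0.05; adjusted p = 3.35e-94, edgeR). Nr4a3 lay between 91.9 and 647 CPM (median 242) against 3.75 to 29.6 CPM (median 9.40), a log2 fold change of 4.77 (SE 0.06). Both were separated in every animal, without overlap of the ranges. Egr4 (log2 fold change 3.02, SE 0.06) and the AP-1 member Fosl2 (2.96, SE 0.06) were also separated, with IEG-high medians of 258 and 164 CPM against 33.7 and 22.5 CPM. The antiproliferative cofactor Btg2 (3.54) and Egr3 (1.91) rose with overlapping ranges, each higher in 39 of 40 animals.

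Smaller rises were found for Jun (log2 fold change 1.30), Jund (0.76), and the circadian repressors Bhlhe40 (1.25) and Per1 (1.10). Bhlhe40 was higher in all 40 animals and the others in 37 or 38. Klf6, a zinc finger factor, went the other way. Its median was 13.6 CPM in IEG-high and 30.4 CPM in IEG-zero nuclei, and it was higher in 4 of 40 animals. Klf6 fell by 1.04 on the log2 scale (SE 0.10, edgeR adjusted p = 2.16e-15). At these levels it passed the filter on low counts mainly through the IEG-zero sums, so a fall was favoured by the filter. Klf6 had too few counts for the test under the stricter definition of spiny nuclei. The tested interneuron markers and most tested glial markers also fell, as described further on, and their part in its difference was not tested.

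**Figure D1:**
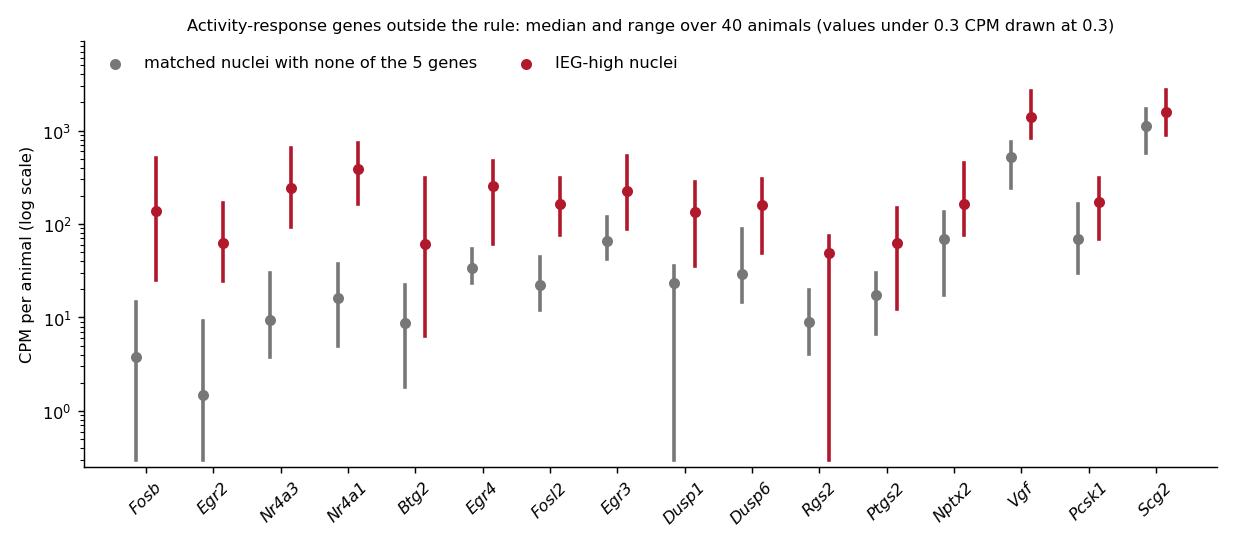
Level of 16 activity-response genes outside the rule, in CPM on a log axis, in IEG-high nuclei (red) and matched nuclei with none of the 5 genes (grey). Points are medians and bars the range over 40 animals, with values under 0.3 CPM drawn at 0.3; for Fosb, Egr2, Nr4a3, Nr4a1, Egr4, Fosl2 and Vgf the bars do not overlap.

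Genes whose products dampen the signal rose as well. Of 22 listed feedback phosphatases, kinases and growth-arrest genes 14 were tested, 12 rose and none fell, with a median log2 fold change of 0.89. Under the stricter definition 8 of 10 rose and none fell. Among all genes tested 20.6% rose and 21.3% fell, and 15.4% and 15.6% did under the stricter definition. Genes such as Dusp5, with few UMIs in IEG-zero nuclei, passed the filter on low counts through the IEG-high sums. A rise was thus favoured by the filter, and the count and median describe the tested genes only. Dusp1 and Dusp6, phosphatases that switch off MAP kinases, had medians of 136 CPM (35.5 to 281) and 161 CPM (49.0 to 300.1) in IEG-high nuclei against 23.2 CPM (0 to 35.8) and 29.4 CPM (14.7 to 88.7). Both were higher in every animal, although their ranges overlapped over animals, slightly for Dusp1 and more for Dusp6, with log2 fold changes of 2.66 (SE 0.06) and 2.50 (SE 0.06). Dusp5 (2.24) and Dusp4 (1.21), of the same family, also rose. Rasd1, a small G protein that restrains cAMP signalling, lay between 139 and 574 CPM against 40.5 to 107 CPM, without overlap (log2 fold change 2.05, SE 0.05). The salt-inducible kinases, which hold back CREB coactivators, rose by 1.94 (Sik1), 0.89 (Sik2) and 0.30 (Sik3) on the log2 scale.

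Slower response genes for secreted and synaptic proteins made up the next group. Of 28 listed, 21 were tested, 20 rose and none fell, with a median log2 fold change of 1.16. Under the stricter definition 16 of 17 rose and none fell. The shares over all genes tested were 20.6% higher and 21.3% lower, and 15.4% and 15.6% under the stricter definition. Listed genes with few UMIs in IEG-zero nuclei, such as Rgs2 and Gpr3, passed the filter on low counts through the IEG-high sums. The filter thus favoured a rise, and the count and median describe the tested genes only. Vgf, the precursor of several secreted peptides, lay between 824 and 2674 CPM in IEG-high nuclei (median 1396) and between 245 and 757 CPM in IEG-zero nuclei (median 518). Its ranges did not overlap, and it rose by 1.53 on the log2 scale (SE 0.03; adjusted p = 8.36e-65, edgeR). Nptx2, a secreted protein that gathers AMPA receptors at synapses, had a median of 165 CPM (75.6 to 446) against 68.3 CPM (17.4 to 134), a log2 fold change of 1.57 (SE 0.06), and was higher in all 40 animals. Inhba, a subunit of the growth factor activin, and Pcsk1, a protease that cuts peptide precursors, rose by 1.63 and 1.36. Scg2, a granin of secretory vesicles, rose by 0.60 from a high level (medians of 1573 against 1128 CPM).

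The group also holds genes of receptors, G proteins and kinases. Rgs2, a brake on G protein signalling, and Gpr3, a receptor that raises cAMP, had IEG-zero medians of only 8.91 and 7.65 CPM. Their log2 fold changes were 2.44 (SE 0.09) and 2.36 (SE 0.10), where the filter on low counts favoured a rise. Ptgs2, which makes prostaglandins, rose by 1.99, the G protein Arl4d by 2.05, and the polo-like kinase Plk2 by 0.75 (medians of 1026 and 634 CPM). The synaptic scaffold gene Homer1 rose by 0.56. The opioid and tachykinin peptide genes, which mark the receptor classes, rose by 1.16 for Tac1 (precursor of substance P), 0.99 for Pdyn (dynorphin) and 0.31 for Penk (enkephalin). Tac1 was higher in all 40 animals, Pdyn in 39 and Penk in 32.

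Genes upstream of the response had small fold changes. Of 48 listed calcium, cAMP and ERK signalling genes 43 were tested, 19 rose, 5 fell and 19 were not called, with a median log2 fold change of 0.06. These calls stand beside 20.6% of all genes that rose and 21.3% that fell. Under the stricter definition 10 of 40 rose and 11 fell, beside 15.4% and 15.6% of all genes, and without scaling factors 17 rose and 10 fell. The largest rises were those of Srf, the transcription factor that binds the promoters of many immediate early genes (log2 fold change 0.93, SE 0.06), and of the BDNF receptor gene Ntrk2 (0.67, SE 0.04). Grin1, the common subunit of NMDA receptors, rose by 0.20 (SE 0.02). The largest fall was that of Mef2c, an activity-regulated transcription factor, whose median was 154 CPM in IEG-high and 222 CPM in IEG-zero nuclei (log2 fold change -0.38, SE 0.04, lower in 38 of 40 animals); Mef2c fell by 0.37 under the stricter definition.

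Of 21 listed heat shock and stress genes 10 were tested, 7 rose and 2 fell, with a median log2 fold change of 0.20. Beside them, 20.6% of all genes tested rose and 21.3% fell, so the falls were near the share over all genes. Under the stricter definition 6 of 9 rose and 2 fell, beside 15.4% and 15.6% of all genes. Dnajb5, a co-chaperone gene, lay between 136 and 307 CPM in IEG-high nuclei and between 39.5 and 93.6 CPM in IEG-zero nuclei, without overlap (log2 fold change 1.65, SE 0.04). Txnip, an inhibitor of thioredoxin, rose by 1.06, and the chaperone genes Hsph1 and Hspa5 by 0.27 and 0.24. Sgk1 and Ddit4, which glucocorticoids and cell stress raise in many tissues, fell by 0.35 and 0.21; Ddit4 was not called with all IEG-zero nuclei and no matching (-0.111 in log2, adjusted p = 0.0901, edgeR). The median share of mitochondrial UMIs was 0.381% in matched IEG-high and 0.390% in IEG-zero nuclei, and it was lower in IEG-high nuclei in 26 of 40 animals.

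**Figure D2:**
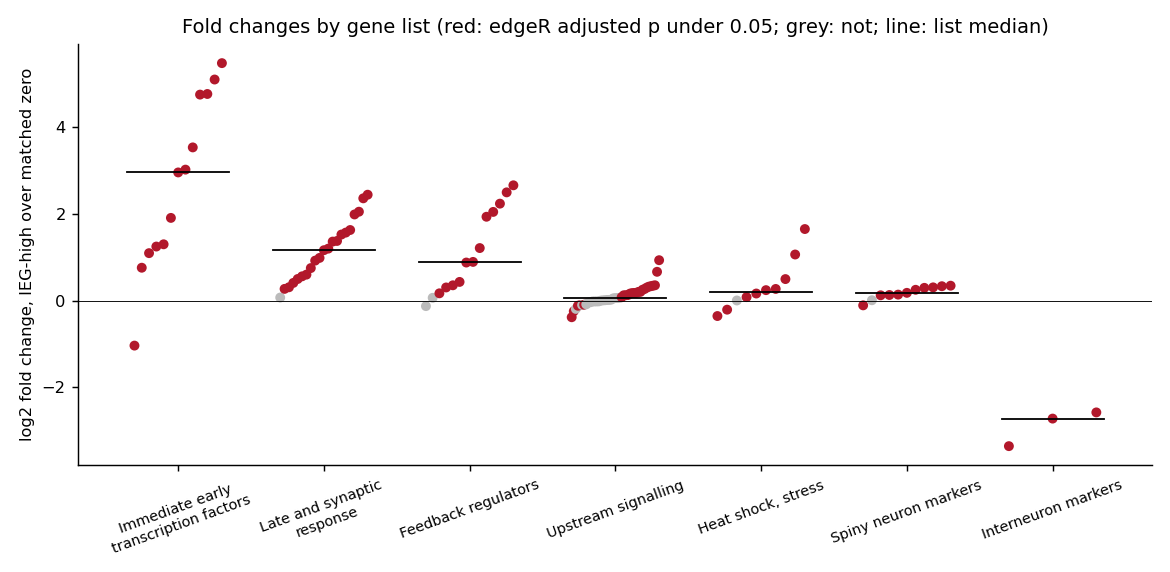
Log2 fold change of each tested gene between IEG-high and matched IEG-zero nuclei (vertical axis), by gene list; red points passed an edgeR adjusted p of 0.05, grey points did not, and black lines are list medians. The medians fall from 2.96 for immediate early transcription factors to 1.16 and 0.89 for slower and feedback genes and 0.06 for upstream signalling, while the 3 tested interneuron markers lie between -3.36 and -2.58.

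Most markers of the spiny identity were slightly higher in IEG-high nuclei. Of the 11 spiny markers 9 rose and 1 fell, with a median log2 fold change of 0.18, and under the stricter definition 5 rose and 2 fell. Of all genes, 20.6% rose and 21.3% fell, and 15.4% and 15.6% under the stricter definition. The spiny markers rose more often than all genes under both definitions. Only their falls under the stricter definition were near the share over all genes. Ppp1r1b, the phosphatase inhibitor DARPP-32, rose by 0.33 and Pde10a, a phosphodiesterase of striatal neurons, by 0.25. The 5 tested markers of eccentric spiny neurons, a less common subtype, all rose, from Col11a1 (0.33) to Otof (1.30), and the 4 tested under the stricter definition rose there too.

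The lowest 10 genes were led by genes of striatal interneurons. Sst (somatostatin) had a median of 40.4 CPM in IEG-high nuclei (0 to 281) against 284 CPM in IEG-zero nuclei (53.8 to 915) and was lower in all 40 animals (log2 fold change -2.58, SE 0.11). Npy (neuropeptide Y, -2.72) and Nos1 (nitric oxide synthase, -1.87) mark the same interneurons, and Kit, another interneuron marker, fell by 3.36. Kit had medians of 1.46 CPM in IEG-high and 26.9 CPM in IEG-zero nuclei. It passed the filter on low counts through the IEG-zero sums, so its fall was favoured by the filter. Kcnc2, Adgra1, Dner, Elavl2, Angpt1 and Rgma were also among the lowest 10 genes. Dner, the only one of the 10 with enough counts under the stricter definition, fell by 1.17 there. Sst, Npy and Kit are among the markers that this definition limits to 1 UMI, so their low counts there depend on the selection. The summed level of the 8 interneuron markers ran from 10.1 to 462 CPM (median 70.4) in IEG-high and from 127 to 1323 CPM (median 544) in IEG-zero nuclei. The ranges overlapped, and the comparison set held the larger share of interneuron RNA. Oligodendrocyte markers summed to medians of 192 CPM in IEG-high and 314 CPM in IEG-zero nuclei. In the same order, astrocyte markers summed to 415 and 462 CPM and microglial markers to 51.1 and 69.5 CPM. Glutamate neuron markers summed to 5.32 and 4.76 CPM. Of 3 tested astrocyte markers 2 fell and 1 rose, beside 21.3% and 20.6% of all genes. The one that rose was Slc4a4 (medians of 312 and 293 CPM), which changed by -0.0231 in log2 under the stricter definition and was not called there. Slc4a4 is itself among the other cell types' markers that this definition limits to 1 UMI, so its value there depends on the selection. Slc17a7, the defining marker of the glutamate neurons, was at 0 in both sets by the rule, and no other measured marker of these types was at 0 in the total of either set. Fewer nuclei of a type and less of its free RNA per nucleus cannot be told apart in these sums.

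Outside the lists, the 10 genes with the highest log2 fold changes under the same limits on level and direction were picked after their values were seen. Pim3, a survival kinase (2.25), Midn, which directs several immediate early proteins to the proteasome (2.07), and the peptide neurotensin gene Nts (2.01) stood first. Nts had a median of 183 CPM (42.6 to 469) against 48.3 CPM (8.47 to 98.9) and was higher in all 40 animals. Maml3, Wdr90, the serotonin receptor gene Htr2a (1.49), the synaptic scaffold gene Tamalin (1.48), Peli1, Sat1 and Umps followed, down to 1.23.

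Many of these genes were at higher levels in nuclei with more rule UMIs. The 5 genes split the spiny nuclei into those with 0, 1 to 3, 4 to 5, 6 to 9 and 10 or more UMIs, where the 3 upper bins are the members; these bins were not matched for depth. Fosb was at 4.24 ± 2.03 CPM (SD over 40 animals), 10.4 ± 5.80, 32.7 ± 21.5, 70.7 ± 34.2 and 281 ± 175 CPM across the bins. Nr4a1 was at 17.1 ± 5.76, 54.5 ± 18.6, 198 ± 75.4, 309 ± 115 and 560 ± 194 CPM. In both, the mean kept climbing within the members. Vgf climbed most between the lower bins, at 500.3 ± 104, 820 ± 184, 1281 ± 390, 1307 ± 431 and 1613 ± 623 CPM. Homer1 had mean levels of 24.6, 32.1, 36.5, 43.2 and 43.2 CPM and Htr2a of 25.3, 39.8, 64.7, 67.9 and 62.4 CPM, without a further climb at the top. Other listed genes did not climb: Klf6 had mean levels of 29.6, 23.4, 15.9, 14.6 and 13.8 CPM, and the growth-arrest gene Gadd45b, which was not called and was picked after its values were seen, of 50.0, 52.3, 56.8, 53.1 and 44.6 CPM. The 2 upper bins rest on the 39 animals with at least 10 such nuclei.

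**Figure D3:**
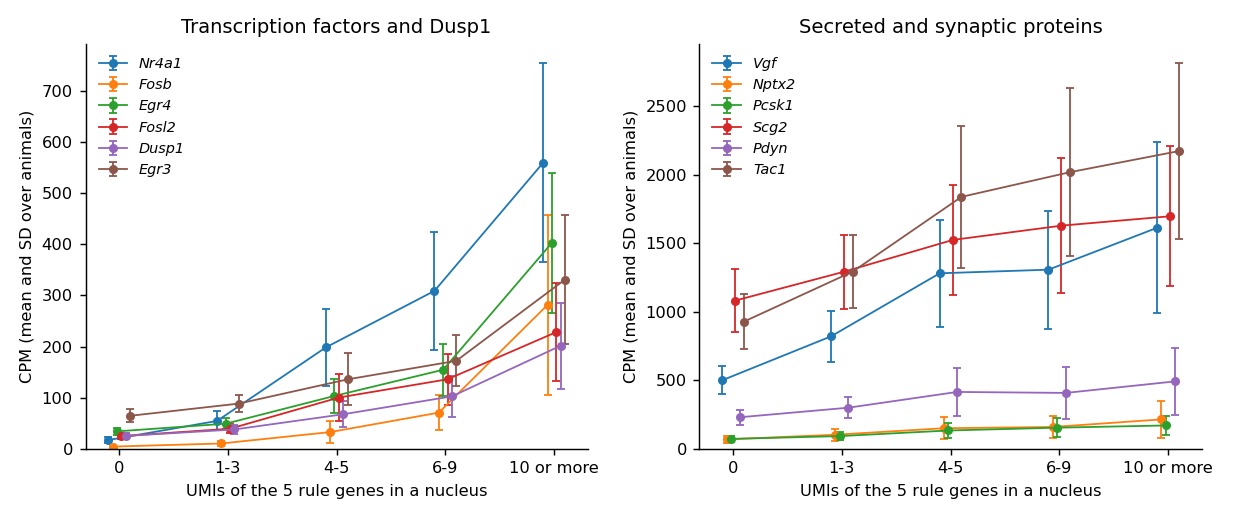
Mean level in CPM (vertical axis; bars are SD over 39 or 40 animals) of 12 genes in spiny nuclei binned by their UMIs of the 5 rule genes (horizontal axis); 0 is the comparison set and 4-5, 6-9 and 10 or more are members. Fosb, Egr4 and Nr4a1 climb steeply into the last bin (Fosb from 70.7 to 281 CPM), while Scg2, Pcsk1 and Pdyn change less within the members.

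Members differed among themselves in which genes they carried. Members with a UMI of Npas4 had a mean Fosb level of 185 ± 111 CPM (SD, 40 animals) against 47.0 ± 35.0 CPM in members without it, and Fosb was higher with Npas4 in 38 animals. Pdyn was at 495 ± 189 against 292 ± 157 CPM and higher with Npas4 in 36 animals, and Rasd1 at 288 ± 80.8 against 185 ± 102 CPM and higher in 38. The order was the opposite for Ppp1r1b, at 1751 ± 387 CPM with Npas4 and 2148 ± 522 CPM without it. Egr1, itself a rule gene, was at 936 ± 223 against 978 ± 289 CPM and higher with Npas4 in 19 animals. Members without Npas4 had to pass the rule through its other genes, so this Egr1 comparison depends on the selection. Members with a UMI of Fos, compared with members without one, had more Nr4a3 in all 40 animals (381 ± 173 against 161 ± 66.5 CPM) and more Egr4 in 39 (363 ± 130 against 168 ± 55.8 CPM). These splits were made on genes of the rule, were not matched for depth and are a description.

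The share of spiny nuclei that were IEG-high varied widely between animals. It ran from 2.43% in male mate 2 to 21.3% in female peer 3, but a deeper nucleus passes a rule on UMIs more easily. With every nucleus thinned to 1000 UMIs, and shallower nuclei left out, the whole rule gave 1.01% to 10.0% per animal. The same thinned count rule was applied to 3472 nuclei with at least 3 UMIs of oligodendrocyte markers and no receptor or Slc17a7 UMI. Of these 18 passed (0.518%, exact binomial interval 0.308 to 0.818%, counting error only), and 4.63% of all thinned spiny nuclei did. Nuclei with oligodendrocyte markers that also held receptor or Slc17a7 UMIs were not in this count. Oligodendrocytes were counted because these neuronal activity genes should be low in them.

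The thinned share was 5.70 ± 2.33% in female mate (SD, n = 11), 3.98 ± 2.82% in female peer (n = 8), 3.34 ± 2.75% in male mate (n = 11) and 5.10 ± 2.45% in male peer animals (n = 10). The 4 ranges overlapped. Averaged over sexes, mates and peers differed by -0.02 percentage points (permutation p = 0.981), and females were 0.614 points above males (permutation p = 0.477, adjusted 0.716). The sex difference was 2.47 points without thinning (permutation p = 0.0505, adjusted 0.152), 1.20 points with thinning to 1500 UMIs (39 animals) and 0.193 points without female peer 3. The pairing difference was 3.49 points more positive in females than in males, with a permutation p of 0.0388 that became 0.116 when adjusted over the 3 contrasts. Each of the 40 libraries was then left out in turn, a step added after these values were seen. The adjusted p of that interaction ran from 0.0249 to 0.1995 and fell under 0.05 in 2 cases, without female peer 3 (4.33 points, permutation p = 0.0083, adjusted 0.0249) and without male mate 5 (4.09 points, adjusted 0.0357). The interaction was thus not called with all 40 animals, and leaving out either of these animals changed that. Without thinning, the means were 11.9 ± 2.70%, 10.4 ± 4.62%, 7.41 ± 4.46% and 9.90 ± 3.16% in the same order of groups, and the interaction was 3.99 points (permutation p = 0.101).

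**Figure D4:**
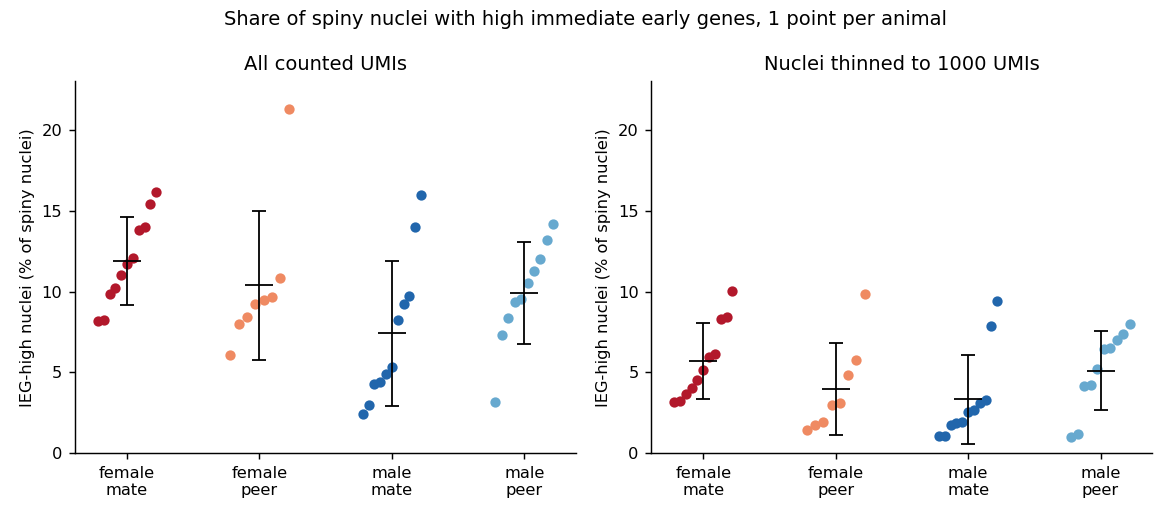
IEG-high nuclei as a percentage of spiny nuclei (vertical axis), 1 point per animal, in the 4 groups, from all UMIs (left) and after thinning each nucleus to 1000 UMIs (right); bars are mean and SD. The groups overlap in both panels, and female peer 3 stands apart at 21.3% on the left.

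Both receptor classes were present among the members. Of the members, 3456 (50.9%) held UMIs of DRD1A only, 2761 (40.7%) of DRD2 or Adora2a only and 573 (8.44%) of both. These classes made up 52.7%, 41.7% and 5.67% of all spiny nuclei. Without thinning, 9.29%, 9.39% and 14.3% of their nuclei were IEG-high. Nuclei with both were the deepest, with a median of 2547.5 UMIs against 2055 and 1975. In the test of thinned shares below, the classes were set from the thinned counts, and only nuclei that still held both were left out. The thinned share was 4.54 ± 2.74% in DRD1A-only and 4.58 ± 2.95% in DRD2- or Adora2a-only nuclei (SD, 40 animals). The difference was -0.04 percentage points (SE 0.319) and positive in 17 of 40 animals (permutation p = 0.903, sign flips within animals). Npas4, Arc and Fos were detected in 75.7%, 88.1% and 38.1% of DRD1A-only members and in 76.6%, 90.4% and 36.7% of DRD2- or Adora2a-only members.

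The response genes rose in both classes: Fosb by 5.39 and 5.52, Nr4a1 by 4.78 and 4.75, Egr4 by 3.04 and 3.03 and Vgf by 1.48 and 1.56 on the log2 scale, in DRD1A-only and DRD2- or Adora2a-only nuclei. A test of the difference between the classes (edgeR's quasi-likelihood test of the interaction, 38 animals) called 164 of 7349 genes (2.23%), of which 77 (1.05%) had the more positive change in DRD1A-only nuclei and 87 (1.18%) in the others. The lowest p belonged to Penk. In DRD1A-only nuclei Penk was at 1367 ± 1044 CPM in IEG-high and 652 ± 452 CPM in IEG-zero nuclei, a log2 fold change of 1.01 (SE 0.07), and in DRD2- or Adora2a-only nuclei it was at 5771 ± 1863 and 5413 ± 1379 CPM, a change of 0.13 (SE 0.03); the difference was 0.88 (SE 0.08, edgeR adjusted p = 7.99e-16). Tac1 showed the mirror image, with a larger change in the class where it is low: 1.78 (SE 0.07) in DRD2- or Adora2a-only nuclei (582 ± 292 against 165 ± 88.1 CPM) and 1.09 (SE 0.03) in DRD1A-only nuclei (3092 ± 691 against 1489 ± 345 CPM), a difference of -0.69 (SE 0.08).

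The adrenergic receptor gene Adra1a was at 63.7 ± 49.3 CPM in IEG-high and 26.8 ± 15.7 CPM in IEG-zero nuclei of the DRD2 or Adora2a class, but at 11.1 ± 11.5 and 28.7 ± 13.3 CPM in DRD1A-only nuclei, a difference of -2.36 (SE 0.23). Sst, also called, fell by 3.32 in DRD1A-only and by 0.90 in DRD2- or Adora2a-only nuclei. In DRD1A-only nuclei the IEG-zero level of Sst was 455 ± 281 CPM, against 130 ± 113 CPM in the other class, so interneuron RNA was unevenly spread over the comparison nuclei. A class rests on as little as 1 receptor UMI. The part of free RNA, of nuclei put in the wrong class and of interneurons in these class differences was not tested.

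Expression inside IEG-high nuclei was then compared between the groups, with UMIs of members summed per animal and 8534 genes tested. No gene was called for mate against peer (0%) by edgeR, where 322 genes had an unadjusted p under 0.05, or by DESeq2, where 278 did. The lowest p values belonged to Orc5 (29.2 ± 8.27 CPM in 22 mates, 39.2 ± 12.9 CPM in 18 peers), Edem2 (36.2 ± 16.9 and 45.7 ± 8.47 CPM) and Smyd3 (68.1 ± 15.2 and 86.1 ± 12.3 CPM), each with an edgeR adjusted p of 1.00. None of these is an activity-response gene, and a missed threshold does not show that members of mates and peers are alike.

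For sex, 2 of 8534 genes (0.0234%) were called. Kdm5c and Kdm6a, histone demethylase genes that lie on the X chromosome and escape its inactivation in other mammals, were higher in females. Kdm5c was at 186 ± 21.3 CPM in 19 females and 136 ± 30.8 CPM in 21 males (a difference of 0.49 in log2, SE 0.07; adjusted p = 7.18e-05, edgeR), and Kdm6a at 285 ± 52.0 and 202 ± 35.0 CPM (0.52, SE 0.08; adjusted p = 0.000108, edgeR). The difference of the pairing effect between the sexes gave no call (240 genes at an unadjusted p under 0.05 with edgeR, 196 with DESeq2). The size of the response was compared too. The change from IEG-zero to IEG-high nuclei differed between mates and peers for none of 8607 genes (0%, 435 at an unadjusted p under 0.05), and Ptgds and Rpsa were among the lowest p values, each with edgeR adjusted p = 0.880.

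The share of IEG-high nuclei was also counted in nuclei that held Slc17a7 and no receptor UMI, a comparison added after earlier values were seen. Under the thinned count rule 8.47% of 22692 such nuclei passed, against 4.63% of 49607 spiny nuclei and 3.54% of 48524 nuclei with neither. Over the 39 animals with at least 50 nuclei of both kinds, the spiny and the Slc17a7 shares moved together (Pearson r = 0.838, Spearman rho = 0.848, permutation p = 1e-05 for each, the smallest 100000 resamples can give). Without the 2 animals farthest from the median spiny share r was 0.853. Within groups r was 0.594 in female mate (permutation p = 0.0559), 0.832 in female peer (exact permutation p = 0.00900, adjusted 0.0120), 0.944 in male mate (permutation p = 0.00025, adjusted 0.001) and 0.883 in male peer animals (n = 9, exact permutation p = 0.00310, adjusted 0.00620), with p adjusted over these 4. Spearman's rho in the same order was 0.655 (permutation p = 0.0334), 0.738 (exact permutation p = 0.0458), 0.709 (permutation p = 0.0184) and 0.800 (exact permutation p = 0.0138), not adjusted. In female mate animals Pearson's r did not pass its threshold. Both kinds of nuclei were set from the thinned counts, so a nucleus that lost its receptor or Slc17a7 UMIs in thinning could change kind. Spiny and Slc17a7 nuclei of an animal also share its library, its free RNA and its handling. The part of all these in the relation was not tested.

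**Figure D5:**
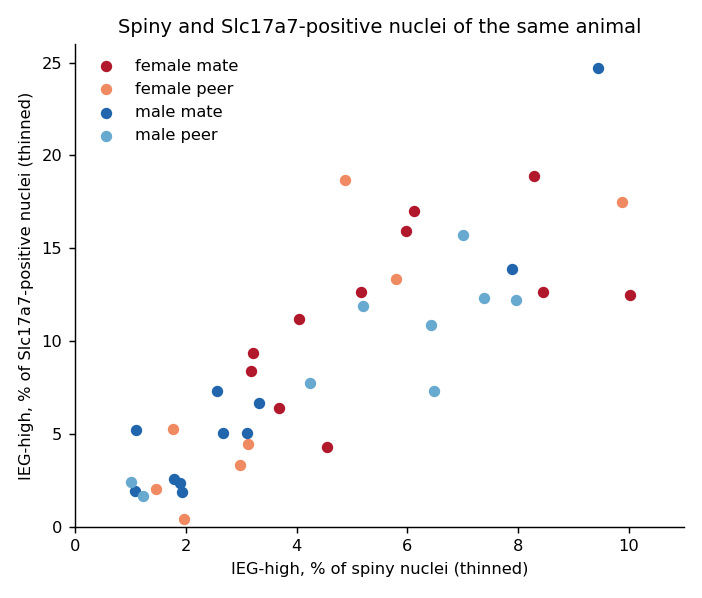
Thinned share of IEG-high nuclei among spiny nuclei (horizontal axis, %) and the share that passed the same count rule among Slc17a7-positive nuclei (vertical axis, %), 1 point per animal (n = 39), coloured by group. Animals with a low share in one population mostly have a low share in the other (Pearson r = 0.838 over all 39).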

How the data were processed

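The values deposited by the authors are raw UMI counts, not normalized, of 19130 genes in the barcodes of 40 libraries. Per the submitters' processing notes they were made with Cell Ranger 3.1.0; the genome build, the annotation and the rule for keeping barcodes are not given in the sources used here. Groups were taken from the sex and pairing type in the labels. The members, gene lists and tests were chosen with earlier results of these data known.

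Of 194518 barcodes, 185995 had at least 500 UMIs and at most 5% mitochondrial UMIs. Called doublets, at an assumed 0.8% per 1000 barcodes, were kept in the main tests and left out in an alternative. Matching used up to 3 IEG-zero nuclei per member, of the same animal and receptor class, within 0.15 in log2 UMIs, without replacement. Summed counts were tested with edgeR 4.0.16 (quasi-likelihood test, TMM factors, filterByExpr, animal as block where states were compared) in R 4.3.3, with Benjamini-Hochberg adjustment; DESeq2 1.42.0 was an alternative, and the edgeR steps were tested on simulated data. A standard error is the log2 fold change divided by the square root of its F statistic. Standard errors and tests are over animals. Shares used nuclei thinned to 1000 UMIs, two-sided permutation tests with 100000 resamples and animals with at least 50 spiny nuclei; tests in members needed at least 20 members and the state comparison at least 10 matched members per animal. Mates, peers and sexes were contrasted on group means, with no pairing of animals.

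Genes were named if they belonged to a list and passed the test, or were among the 10 highest or lowest called genes. The latter needed a mean of at least 20 CPM and the same direction in at least 90% of animals. For other comparisons the 3 lowest p values were named. Among the exceptions were Gadd45b, which was not called, the 10 highest genes outside the lists, and Sst in the comparison of receptor classes. Some genes that this rule selects are not reported here. Sequences are not used here.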

Additional observations from a re-analysis of the deposited data

Results flagged for a closer look

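A search covered 36 sets of values, each of 1 measure in 1 group of at most 10 animals. The female mate and male mate groups, with 11 animals each, were thus not searched. In 6 sets, all of the female peer group, the highest value lay far from the rest, and chance marks about 5% of such sets. In female peer 3, 21.3% of spiny nuclei were IEG-high without thinning, where the next female peer had 10.8%, the summed level of the 5 rule genes over spiny nuclei was 1257 CPM (next 743), and Fosb in its IEG-high nuclei was at 354 CPM (next 171). Female peer 5 had 2982 spiny nuclei (next 1666) and 323 IEG-high nuclei (next 140), so the numbers of nuclei were high together. Nptx2 in IEG-high nuclei was at 271 CPM in female peer 7 (next 154). The change from IEG-zero to IEG-high nuclei differed between the receptor classes for 164 of 7349 genes (2.23%) by the edgeR test of the interaction.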

How the results depend on the processing

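The count of 3609 of 8607 genes called between IEG-high and IEG-zero nuclei became 5672 of 9427 with all IEG-zero nuclei and no matching. With the stricter definition of spiny nuclei, where fewer genes were tested, it was 1962 of 6334. In the same order, 3226 and 1769 of these were also called in the main comparison. Under DESeq2 3495 of 8607 were called (1461 higher, 2034 lower) and without scaling factors 4238 of 8607 (1171 higher, 3067 lower). The change that differed between mates and peers for none of 8607 genes did so for 4 of 16925 when no filter on low counts was used. The mate minus peer difference in the share of IEG-high nuclei, near 0 at -0.02 points, changed sign with 1500 UMIs (0.268, 39 animals), with at least 3 UMIs of the 5 genes (0.0482), without called doublets (0.0497, 39 animals) and as summed CPM (20.5 CPM), and lay at 0.0127 without male mate replicate 2 and 0.400 without female peer replicate 3. The sex by pairing interaction passed its threshold without female peer replicate 3 (4.33 points) but not without male mate replicate 2 (3.42 points). The difference between receptor classes, -0.04 points, was -0.427 with 1500 UMIs, -0.238 under the stricter definition and -0.127 without called doublets, each with 39 animals left by the minimum of 50 nuclei, so that setting and loss of an animal change together; it was 0.305 without thinning, 0.0410 with at least 3 UMIs and between -0.0910 and 0.0502 with male mate replicate 2 or female peer replicate 3 left out. The cause of these shifts was not tested. Of single genes, Hsp90ab1 changed sign with 1 match per nucleus (-0.0334 in log2) and Slc4a4 under the stricter definition (-0.0231). That definition limits the UMIs of Slc4a4 itself, so its change of sign depends on the selection. The stricter definition ended the call of 13 other genes and kept 77 called in the same direction. No paired analysis was possible because the replicate numbers only follow the order of the samples; states and receptor classes were compared within animals. With blocks of 10 label numbers as a covariate, expression in members gave 0 calls for pairing, 2 for sex and 0 for their interaction, as without it. Depth limits genes of few counts: 13 of 26 listed immediate early transcription factors could not be tested.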
